A study of Mus musculus with 12 samples.

Results

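The tripartite motif (TRIM) family holds proteins built from a RING finger, B-box zinc fingers and a coiled coil, most of which work as E3 ubiquitin ligases that attach ubiquitin to chosen target proteins. Many members are induced by interferons and act in innate immunity, either in the sensing of foreign nucleic acid or directly against viruses. Other members repress transcription in the nucleus, bind microtubules or carry NHL repeats, and several of these are known from neurons and muscle. The genes described here are all protein-coding genes whose symbol is Trim, a number and at most 1 letter. They number 68 of the 55488 genes listed over the deposited tables, and all 68 occur in both.

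Bulk RNA was counted per gene in 12 wild-type (WT) mouse libraries in 4 groups of 3. Retina cells were taken on day 1 from eyes with optic nerve crush (ONC) that received vesicles secreted by mesenchymal stem cells (MSC.sEV, given "i.o.", an abbreviation left unexplained) or phosphate-buffered saline (PBS), so every retina had the injury and no uninjured group is part of the comparison. Cells labelled brain microvascular pericytes were given MSC.sEV or PBS for 12 hours. The retina columns carry short names that were read as these groups by inference, so the direction of every retina difference rests on that reading, and library numbers are column numbers. Had the control columns been uninjured retina, the differences would hold the crush as well. Whether replicates are separate animals or separate dishes is not recorded, so p-values measure the spread between these libraries, which may be technical.

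Each retina library held 15580024 to 16842926 counts, and each pericyte-labelled library 33001248 to 37954077. Levels are given as CPM (read counts put on a per-library scale) and are not compared across the tables, which list different sets of genes. A count of 3 equals 0.180 to 0.196 CPM in the retina and 0.0778 to 0.0895 CPM in the pericyte-labelled libraries. A gene is called when edgeR's quasi-likelihood test gives a 2-sided Benjamini-Hochberg adjusted p under 0.05 over all genes of its table, and fold changes are log2 of vesicles over PBS ± SE. In the pericyte-labelled libraries Acta2 averaged 587 CPM with vesicles and 572 with PBS, and Pdgfrb 70.8 CPM with vesicles and 59.7 with PBS. The pericyte markers Rgs5, Kcnj8, Abcc9 and Des were under 1 CPM there, while the oligodendrocyte lineage factor Olig1 averaged 150 CPM with vesicles and 208 with PBS. These are single members of longer lists. All 9 pericyte markers, of which 6 passed the count filter, summed to 678 to 696 CPM with vesicles and 643 to 688 with PBS. All 8 oligodendrocyte lineage markers summed to 403 to 460 CPM with vesicles and 547 to 566 with PBS.

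Of the 17 members that were higher with vesicles in at least 1 table, 15 have promoters in the RefSeq table (build GRCm38.p6, 250 bases before to 50 after each start), and 8 of these 15 hold GAAA, any 2 bases and GAAA again on either strand. This is the core of the interferon-stimulated response element (ISRE), a sequence found in the promoters of many interferon-induced genes. The windows below show that match in the 8 genes, read 5′ to 3′ on each gene's own strand, with the matched bases in capitals; TTTC, any 2 bases and TTTC is the same motif on the other strand. They are shown because the results centre on these genes, and they were picked after the matches were seen.
Trim30d, chr7:104507871-104507900, minus strand: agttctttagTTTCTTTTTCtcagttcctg
Trim30a, chr7:104465210-104465239, minus strand: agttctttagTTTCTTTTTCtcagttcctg
Trim30a, second start, chr7:104446104-104446133, minus strand: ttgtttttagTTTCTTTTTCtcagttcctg
Trim12a, chr7:104315466-104315495, minus strand: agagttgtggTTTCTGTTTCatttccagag
Trim5, chr7:104288136-104288165, minus strand: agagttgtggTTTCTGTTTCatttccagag
Trim12c, chr7:104353359-104353388, minus strand: agagttgtggTTTCTGTTTCatttccagct
Trim34a, chr7:104244457-104244486, plus strand: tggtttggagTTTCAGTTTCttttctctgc
Trim21, chr7:102565447-102565476, minus strand: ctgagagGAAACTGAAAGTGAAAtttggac
Trim26, chr17:36836979-36837008, plus strand: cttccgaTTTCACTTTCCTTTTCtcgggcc

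The windows of Trim30d and of the upstream start of Trim30a are the same 30 letters, and so are those of Trim12a and Trim5. In Trim21 and Trim26 the capitals cover 2 overlapping matches. The match lies within 50 bases of the start in all of them but Trim26. Of all 32851 promoters of that set 3.44% hold the motif, and of all 27025 genes with a promoter 3.99%. Of the 53 members with a promoter 9 hold it (17%). Among the 16 tested members with a promoter that were not called in retina or pericyte-labelled libraries, none holds it, and among the 5 that were lower with vesicles 1 does, Trim2. The letters TTCNNNGAA, the core of the gamma-activated sequence (GAS), are in 8.3% of promoters (9.55% of genes), in 0 of the 15 genes that were higher and in 3 of the 16 called in neither table. The NF-kB consensus is in 8.46% of promoters (9.55% of genes), in 0 of the 15 and in 5 of the 16. A match is a description of letters in this window and not of binding.

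The promoters of the first 2 members in order of p in the retina, Trim30b and Trim30d, differ in this respect. The 250 bases before each start are printed below on the gene's own strand, and capitals mark the ISRE core, which these letters hold for Trim30d and not for Trim30b.
Trim30b, chr7:104358647-104358896, minus strand: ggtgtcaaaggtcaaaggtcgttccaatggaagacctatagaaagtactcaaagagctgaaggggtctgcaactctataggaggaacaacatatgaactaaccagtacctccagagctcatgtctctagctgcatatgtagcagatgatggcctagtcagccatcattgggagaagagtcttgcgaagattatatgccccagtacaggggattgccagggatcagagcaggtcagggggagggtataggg
Trim30d, chr7:104507850-104508099, minus strand: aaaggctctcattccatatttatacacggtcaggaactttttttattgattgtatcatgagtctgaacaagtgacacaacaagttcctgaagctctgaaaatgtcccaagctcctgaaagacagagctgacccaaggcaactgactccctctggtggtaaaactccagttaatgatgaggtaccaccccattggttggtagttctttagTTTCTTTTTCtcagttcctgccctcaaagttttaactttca

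In the crushed retina, 10 TRIM genes were higher with vesicles than with PBS and 0 were lower. They were led by 3 genes of the Trim30 group and by Trim47, each at least 2.98 log2 units higher, and they included Trim25, Trim56 and Trim21, which serve antiviral sensing. Trim30b and Trim47 passed the count filter only with their vesicle libraries. These 10 are 23.3% of the 43 members tested, where 10.7% of all 15440 tested genes were called higher and 5.19% lower (15.9% in either direction). Of the 10, 9 belong to the list of 24 TRIM genes with known roles in interferon and innate immune responses, of which 17 were tested, with a median log2 fold change of 0.73. That list was chosen with earlier results of these data known, so this share is a description and not independent evidence. The median was 0.05 over all tested members and -0.02 over all tested genes. Summed over the 24 genes, the level was 311 to 371 CPM in the vesicle libraries and 246 to 263 CPM in the PBS libraries. The count of 10 was 5 without PBS library 2 and 6 without the library richest in lens mRNA in each group, vesicle library 2 and PBS library 1. Calls over all genes also fell, from 2449 to 1328 and 1420 in these 2 fits.

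**Figure D1:**
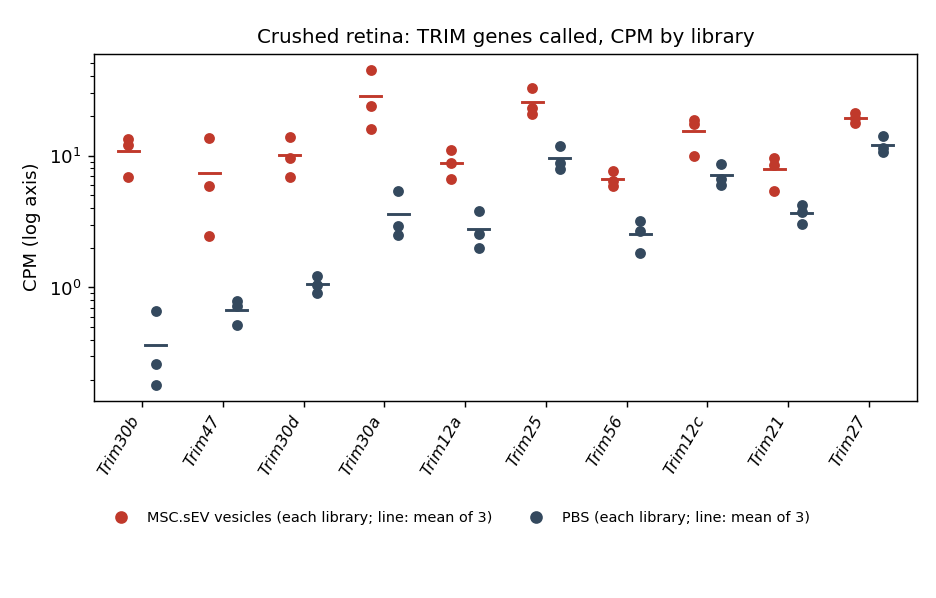
CPM (log axis) of the 10 TRIM genes called in the crushed retina, in order of fold change; each point is a library, vesicles in red left of PBS in dark blue, and the line is the mean of 3. In each of the 10 genes all 3 vesicle libraries lie above all 3 PBS libraries, and Trim47 has the widest spread among vesicle libraries on this axis, from 2.47 to 13.7 CPM. Of all tested retina genes 35.7% had groups without overlap.

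The Trim30 genes are a mouse group of close relatives, of which Trim30a is known to restrain Toll-like receptor signalling to NF-kB. Trim30b (ENSMUSG00000052749) was at 12.0, 13.3 and 6.91 CPM in vesicle libraries 1 to 3 and at 0.261, 0.182 and 0.661 CPM in the PBS libraries, a log2 fold change of 4.83 ± 0.46 (adjusted p = 0.00022). Its PBS libraries held 4, 3 and 11 counts, near the floor, so the size of this fold change rests on few counts. It passed the count filter only with its vesicle libraries. Trim30d (ENSMUSG00000057596) had 13.8, 9.55 and 6.85 CPM with vesicles and 1.04, 1.22 and 0.901 CPM with PBS (3.24 ± 0.33, adjusted p = 0.00029). Trim30a (ENSMUSG00000030921) had 44.9, 23.96 and 15.9 CPM with vesicles and 5.35, 2.49 and 2.94 CPM with PBS (2.98 ± 0.49, adjusted p = 0.012). The groups do not overlap in any of the 3 (nor in 35.7% of all tested genes), and vesicle library 3 is the lowest vesicle library in each. Trim30c fell below the count filter, with 37 counts over the vesicle libraries and 4 over the PBS libraries. The call of Trim30a was lost without PBS library 2 (log2 fold change 2.77, adjusted p = 0.059) and without the lens-richest library of each group (log2 fold change 3.49, adjusted p = 0.069), while Trim30b and Trim30d were called under all 10 alternatives.

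Trim25, the ligase that ubiquitinates the RNA sensor RIG-I, was at 32.5, 22.8 and 20.8 CPM with vesicles and 7.90, 8.82 and 11.8 CPM with PBS (1.41 ± 0.21, adjusted p = 0.0025). Trim56, which is known to support signalling through STING and Toll-like receptor 3, had 5.92, 7.59 and 6.42 CPM with vesicles and 1.83, 2.68 and 3.18 CPM with PBS (1.37 ± 0.27, adjusted p = 0.0089). Both rose without overlap between the groups, which 35.7% of all tested genes also lacked. Trim21, the cytosolic receptor for antibody-coated virus, had 8.54, 9.61 and 5.43 CPM with vesicles and 4.24, 3.71 and 3.00 CPM with PBS (1.11 ± 0.27, adjusted p = 0.023). Trim27, a RING ligase with reported effects on interferon and NF-kB signalling, had 19.2, 21.1 and 17.6 CPM with vesicles and 11.5, 10.7 and 14.1 CPM with PBS (0.67 ± 0.15, adjusted p = 0.017), the least change among the 10. Trim21 was called under 5 of the 10 alternatives and Trim27 under 6, and Trim56 lost its call only in the fit without the lens-richest libraries (adjusted p = 0.057).

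Trim12a and Trim12c, mouse relatives of the primate retrovirus restriction factor TRIM5, were also higher. Trim12a had 10.96, 8.85 and 6.67 CPM with vesicles and 3.79, 2.01 and 2.52 CPM with PBS (1.67 ± 0.30, adjusted p = 0.0055). Trim12c had 18.7, 17.5 and 9.94 CPM with vesicles and 8.62, 6.02 and 6.67 CPM with PBS (1.11 ± 0.26, adjusted p = 0.018). Neither gene's groups overlap (nor do those of 35.7% of all tested genes), and Trim12c lost its call under 5 alternatives (adjusted p from 0.060 to 0.080). In transcripts of the GENCODE M21 annotation, 28.8% of the 50-base words of Trim12c and 7.86% of those of Trim12a occur in another member, so reads of these relatives may have been split. For Trim30d and Trim30a the shares are 7.49% and 5.98%, and for Trim30b 0.406%.

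Trim47, a RING ligase outside the innate immune list, was at 5.86, 13.7 and 2.47 CPM with vesicles and 0.522, 0.790 and 0.721 CPM with PBS (3.42 ± 0.65, adjusted p = 0.012). The PBS libraries held 8, 13 and 12 counts of Trim47, so it passed the count filter only with its vesicle libraries. Its vesicle libraries differ among themselves, as a ratio, by more than those of any other called member, and all lie above the PBS libraries. Summed lens marker mRNA was at 18605, 75757 and 104 CPM in vesicle libraries 1 to 3 and at 6415, 644 and 555 CPM in the PBS libraries. Without the lens-richest library of each group Trim47 was 2.46 log2 units higher (adjusted p = 0.032), and its call was lost without PBS library 1, 2 or 3 (adjusted p from 0.051 to 0.063). Its exons overlap those of Trim65 on the same strand over 8.23% of their length, and Trim65 itself was at 0.33 ± 0.34 (adjusted p = 0.55).

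Leukocyte markers moved with these genes in the retina. All 16 markers of the list were higher with vesicles, none was at 0, and their summed level was 1720, 1840 and 1103 CPM in vesicle libraries 1 to 3 and 137, 100 and 153 CPM in the PBS libraries. Rod photoreceptor markers summed to 66015 to 79816 CPM with vesicles and 96794 to 102394 CPM with PBS, with 5 of 8 lower. Over all tested genes 10.7% were called higher and 5.19% lower. In bulk RNA, a change in the number of cells of a type and a change in RNA per cell cannot be told apart. The part of leukocytes, rods or lens in the TRIM differences was not tested.

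**Figure D2:**
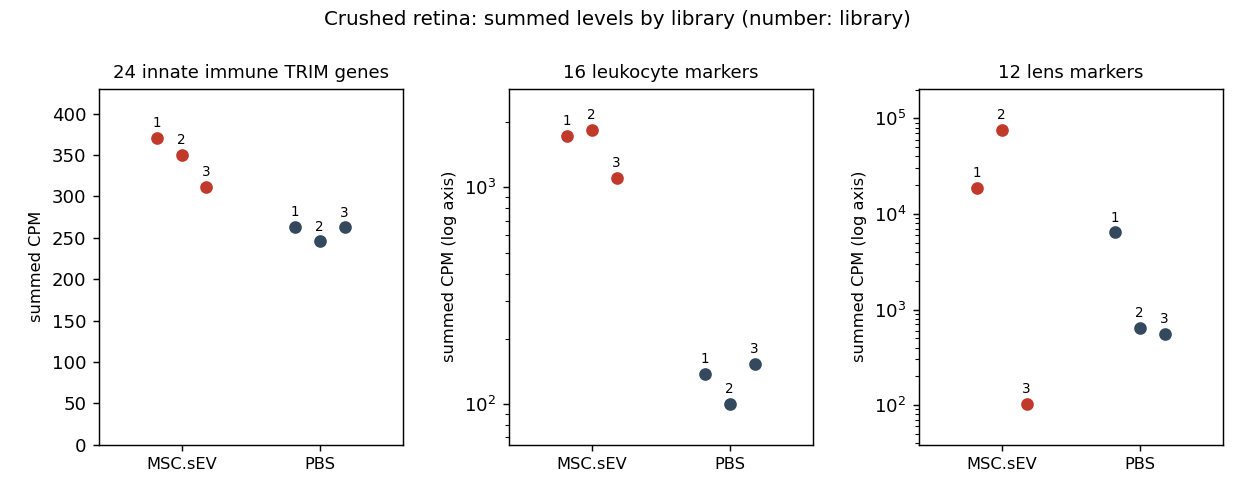
Summed CPM in each retina library, numbered, of the 24 innate immune TRIM genes (axis from 0), 16 leukocyte markers and 12 lens markers (log axes), vesicles left of PBS. The TRIM and leukocyte sums of all vesicle libraries lie above those of all PBS libraries, while the lens sums overlap and vesicle library 3 has the lowest of all, 104 CPM.

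The other 33 tested members were not called in the retina, with log2 fold changes from -0.81 to 0.75. Among these, Trim17, a neuronal ligase tied to cell death, had 5.29, 5.06 and 5.62 CPM with vesicles and 6.72, 10.6 and 9.43 CPM with PBS (-0.74 ± 0.22, adjusted p = 0.051). Its groups do not overlap, and DESeq2 called it lower (adjusted p = 0.031), as did edgeR with RLE scaling (adjusted p = 0.046). Of the exon length of Trim17, 19.0% is shared with a histone gene on the same strand. Trim8, Trim66 and Trim68 were not called either, though their groups do not overlap. Over the members, 14 of 43 had no overlap (10 of the 10 called and 4 of the 33 not called), where 35.7% of all tested genes had none.

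Nuclear members with a PHD finger and bromodomain (Trim24, Trim28, Trim33 and Trim66) had 0 of 4 called in the retina, with a median of 0.02, where 15.9% of all tested genes were called. Trim28, the corepressor that serves KRAB zinc finger proteins, stood highest among members per kilobase of exon when averaged over both groups. It was at 19.2 ± 0.54 CPM per kilobase with vesicles and 18.4 ± 1.97 with PBS (SD, n = 3 each). Per library it had 79.3, 82.6 and 78.3 CPM with vesicles and 69.3, 74.5 and 85.3 CPM with PBS (0.07 ± 0.10, adjusted p = 0.68). It was followed by Trim32, an NHL-repeat ligase linked to muscular dystrophy in humans, at 16.4 ± 1.15 CPM per kilobase with vesicles and 19.3 ± 3.15 with PBS. Trim23, which also carries a GTPase domain of the ARF type, was at 16.3 ± 1.43 CPM per kilobase with vesicles and 18.6 ± 2.72 with PBS. The next gene, Trim44, was at 16.4 ± 0.79 CPM per kilobase with vesicles and 14.6 ± 1.13 with PBS. With vesicles Trim28 lay above Trim32, Trim23 and Trim44 beyond their SDs, while Trim32, Trim23 and Trim44 overlap. With PBS Trim44 lay below, and Trim28, Trim32 and Trim23 overlap within their spread, so their order there is not resolved. Per library, Trim32 had 52.6, 49.7 and 57.0 CPM with vesicles and 50.5, 68.7 and 67.3 CPM with PBS (-0.23 ± 0.13, adjusted p = 0.27), and Trim23 had 87.9, 89.5 and 103 CPM with vesicles and 124, 93.8 and 103 CPM with PBS (-0.19 ± 0.12, adjusted p = 0.31). The 3 tested NHL-repeat members and the 4 tested members with a COS box, which binds microtubules, had none called, with medians of -0.23 and -0.34. Groups of 3 or 4 members are too few to tell 0 calls from the 15.9% of all tested genes.

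Of the 68 members, 42 reached a mean of 1 CPM in some retina group, and Trim7 was tested below that level (0.883 CPM with vesicles, 0.525 with PBS). The 25 others did not pass the count filter and had mean levels of at most 0.777 CPM. Among them Trim42, Trim50, Trim52 and Trim54 had 0 counts in all libraries. Among the untested members of the innate immune list, Trim5 had 33 counts over the vesicle libraries and 17 over the PBS libraries, and in the same order of groups Trim34b had 3 and 0, Trim6 had 2 and 2, and Trim14 had 13 and 12.

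In the pericyte-labelled libraries, 15 TRIM genes were higher with vesicles and 6 were lower. The largest change among them was in Trim30a, which rose 12.4-fold, and 14 of the 15 that rose belong to the innate immune list. This list was chosen with earlier results of these data known. The genes that fell did so by 0.18 to 0.71 on the log2 scale. Called members were 45.7% of the 46 tested (32.6% higher, 13% lower), where 19.8% of all 16975 tested genes were called (10.9% higher, 8.9% lower). Of the 24 innate immune members 19 were tested, with 14 higher, 1 lower and a median of 1.18, while the median was 0.07 over all tested members and 0.00 over all tested genes. Their summed level was 1066 to 1104 CPM in the vesicle libraries and 780 to 800 CPM in the PBS libraries. Leukocyte markers had 3 of 12 tested genes higher (Ptprc, Spi1 and Cd52), with Ccr2 and S100a9 at 0 and a summed level of 100 to 153 CPM with vesicles and 92.8 to 98.2 CPM with PBS, of which Lyz2 made up 92.8 CPM with vesicles and 71.8 CPM with PBS on average. Their part in the TRIM differences was not tested.

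**Figure D3:**
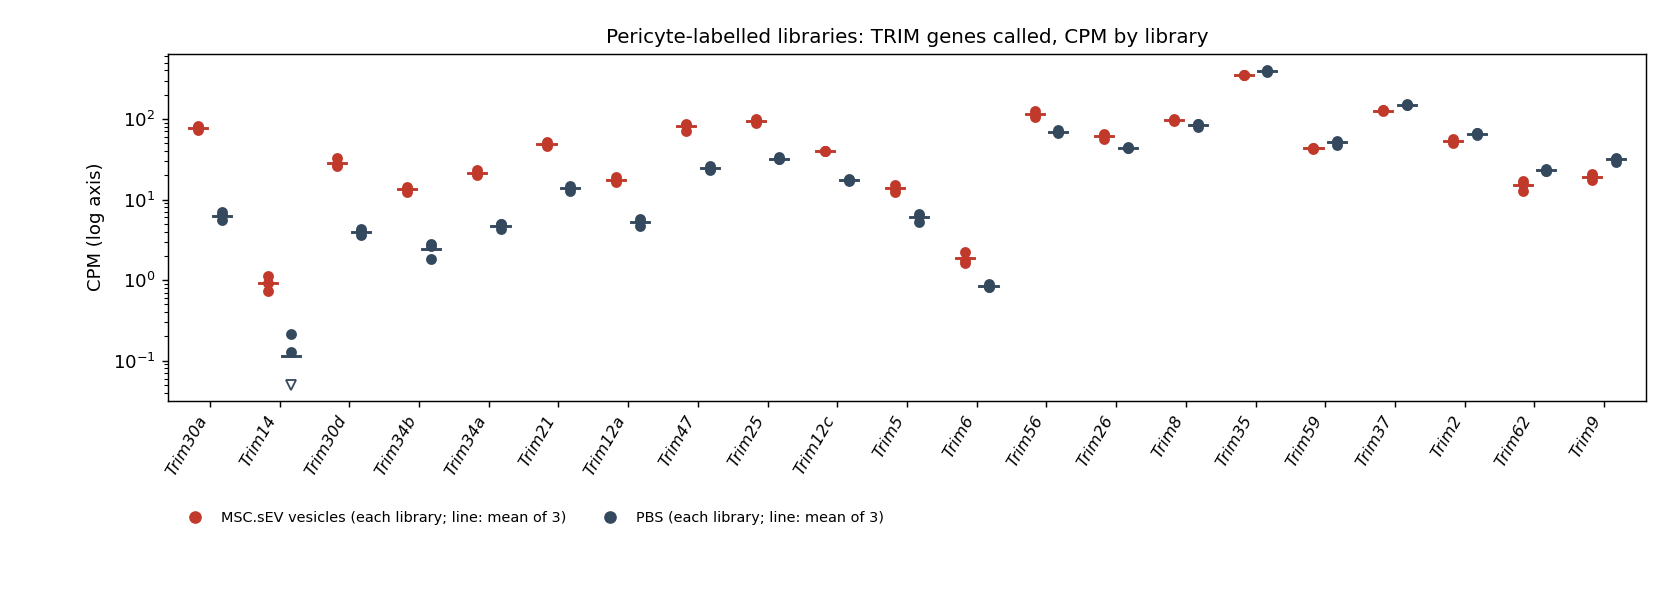
CPM (log axis) of the 21 TRIM genes called in the pericyte-labelled libraries, in order of fold change; points are libraries, vesicles in red left of PBS in dark blue, lines are means of 3, and the open triangle, drawn at 0.05, is a PBS library with 0 counts of Trim14. Trim30a stands at 73.5 to 82.5 CPM with vesicles against 5.51 to 6.98 CPM with PBS, and no gene's groups overlap. Of all tested genes in these libraries 33.8% had groups without overlap.

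Trim30a and Trim30d were again among the members that differed most. Trim30a was at 78.9, 82.5 and 73.5 CPM in vesicle libraries 1 to 3 and at 6.98, 6.45 and 5.51 CPM in the PBS libraries (3.63 ± 0.09, adjusted p = 2.5e-17). Trim30d had 26.1, 32.6 and 27.7 CPM with vesicles and 3.58, 4.07 and 4.29 CPM with PBS (2.86 ± 0.12, adjusted p = 1.4e-13). The groups were far apart for both. Trim30b and Trim30c were below the count filter, with 71 counts over the vesicle libraries and 6 over the PBS libraries for Trim30b, and 13 and 0 for Trim30c. With no count filter edgeR called Trim30b (3.44, adjusted p = 0.00077) and did not call Trim30c (adjusted p = 0.13).

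The relatives of primate TRIM5 and TRIM34 were all higher. Trim34a had 23.0, 21.5 and 20.01 CPM with vesicles and 4.90, 4.99 and 4.32 CPM with PBS (2.18 ± 0.12, adjusted p = 7.5e-12), and Trim34b 12.6, 13.5 and 14.1 CPM with vesicles and 2.77, 1.84 and 2.65 CPM with PBS (2.46 ± 0.16, adjusted p = 1.6e-10). These 2 genes share 39.8% and 56.8% of their 50-base words with each other, and 23.5% of the exon length of Trim34a lies opposite a gene model on the other strand, so the share of reads that each received is uncertain. Trim12a had 19.3, 16.4 and 17.4 CPM with vesicles and 5.45, 5.68 and 4.64 CPM with PBS (1.75 ± 0.12, adjusted p = 8.2e-10). Trim12c had 40.1, 40.0 and 40.3 CPM with vesicles and 17.8, 17.2 and 16.9 CPM with PBS (1.21 ± 0.08, adjusted p = 2.0e-10). Trim5 had 13.4, 15.2 and 12.6 CPM with vesicles and 6.22, 5.26 and 6.67 CPM with PBS (1.18 ± 0.13, adjusted p = 7.9e-07). None of these groups overlap (nor do those of 33.8% of all tested genes), and 29.5% of the words of Trim5 occur in another member.

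Among further members of the innate immune list, Trim25, Trim56, Trim14 and Trim6 rose, while Trim65, Trim13 and Trim23 were not called (0.53, -0.12 and -0.01 on the log2 scale, adjusted p = 0.073, 0.57 and 0.98). Trim25 had 89.9, 99.7 and 97.2 CPM with vesicles and 33.7, 31.5 and 31.5 CPM with PBS (1.57 ± 0.07, adjusted p = 1.4e-13). Trim56 had 104, 113 and 126 CPM with vesicles and 72.3, 68.6 and 66.9 CPM with PBS (0.72 ± 0.07, adjusted p = 6.9e-08). Trim14, an adaptor of the mitochondrial antiviral protein MAVS, stayed below a mean of 1 CPM, with 1.13, 0.739 and 0.915 CPM with vesicles and 0.130, 0 and 0.216 CPM with PBS (99 and 13 counts in all, 2.94 ± 0.68, adjusted p = 0.0033). Its PBS libraries held 5, 0 and 8 counts, so it passed the count filter only with its vesicle libraries. Of the exon length of Trim14, 38.0% lies opposite Nans and other gene models, so without strand its reads cannot be told from theirs. Trim6, which in human cells makes free ubiquitin chains that activate the kinase IKK-epsilon, had 1.76, 1.64 and 2.21 CPM with vesicles and 0.882, 0.832 and 0.810 CPM with PBS (1.15 ± 0.32, adjusted p = 0.015).

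Trim21, Trim26 and Trim8 of the same list also rose. Trim21 had 51.4, 48.8 and 46.3 CPM with vesicles and 12.9, 13.97 and 14.9 CPM with PBS (1.81 ± 0.08, adjusted p = 6.9e-13). Trim26, reported to act on the transcription factor IRF3, had 56.8, 65.8 and 63.1 CPM with vesicles and 44.7, 43.4 and 43.5 CPM with PBS (0.50 ± 0.07, adjusted p = 1.7e-05). Trim8, which acts in cytokine signalling, had 94.4, 99.1 and 96.2 CPM with vesicles and 85.4, 80.2 and 85.4 CPM with PBS (0.21 ± 0.06, adjusted p = 0.015). The call of Trim8 was lost without vesicle library 2 (adjusted p = 0.061) or PBS library 2 (0.11), and that of Trim6 without vesicle library 3 (0.075). Trim47, outside the innate immune list, had 87.8, 83.2 and 71.6 CPM with vesicles and 26.2, 23.4 and 23.7 CPM with PBS (1.72 ± 0.08, adjusted p = 7.4e-13). Trim27 was not called, at 34.6, 35.2 and 33.01 CPM with vesicles and 33.1, 31.4 and 33.6 CPM with PBS (0.07 ± 0.08, adjusted p = 0.63).

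Of the 6 members that fell, Trim9 and Trim62 changed most. Trim9, a brain-rich COS box ligase that acts in axon guidance, had 17.3, 19.4 and 20.8 CPM with vesicles and 32.1, 29.3 and 32.9 CPM with PBS (-0.71 ± 0.09, adjusted p = 5.1e-06). Trim62 had 12.7, 15.6 and 17.1 CPM with vesicles and 22.8, 24.1 and 22.4 CPM with PBS (-0.61 ± 0.11, adjusted p = 0.00022). Trim2, an NHL-repeat ligase of neurofilament light chain, had 52.7, 50.9 and 56.2 CPM with vesicles and 67.8, 62.5 and 66.5 CPM with PBS (-0.30 ± 0.07, adjusted p = 0.0021). In all 3 the groups are apart, as in 33.8% of all tested genes. Over all tested genes 8.9% were called lower. Oligodendrocyte lineage markers were also lower in these libraries (4 of 6 tested, summed level 403 to 460 CPM with vesicles and 547 to 566 CPM with PBS), and their part in these differences was not tested.

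The other 3 genes that fell changed less. Trim37, a ligase of centrosomes and peroxisomes that is mutated in Mulibrey nanism, had 128, 124 and 128 CPM with vesicles and 151, 152 and 148 CPM with PBS (-0.25 ± 0.05, adjusted p = 0.0020). Trim59 had 43.8, 42.3 and 43.6 CPM with vesicles and 51.5, 48.1 and 54.0 CPM with PBS (-0.24 ± 0.07, adjusted p = 0.016). Trim35, reported to act on the transcription factor IRF7, had 347, 348 and 354 CPM with vesicles and 386, 393 and 410 CPM with PBS (-0.18 ± 0.05, adjusted p = 0.021). Trim35 was the only called member of the innate immune list that was lower. Trim59 lost its call without vesicle library 2, PBS library 1 or PBS library 3 (adjusted p up to 0.12), and Trim35 without vesicle library 2, PBS library 2 or PBS library 3 (from 0.052 to 0.16).

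Trim35 was also the highest member per kilobase of exon in these libraries, at 75.7 ± 0.81 CPM per kilobase with vesicles and 85.8 ± 2.73 with PBS, followed by Trim28 at 57.3 ± 1.93 with vesicles and 61.0 ± 0.99 with PBS (SD, n = 3 each). Per library Trim28 had 243, 243 and 229 CPM with vesicles and 252, 250 and 258 CPM with PBS (-0.09 ± 0.05, adjusted p = 0.31). Averaged over both groups Trim44 came next, at 25.8 ± 1.43 CPM per kilobase with vesicles and 26.7 ± 0.44 with PBS. It did not differ from Trim41 (26.2 ± 1.13 with vesicles, 25.3 ± 0.58 with PBS) beyond their spread. With vesicles Trim47 (29.6 ± 3.04) and Trim8 (26.0 ± 0.65) averaged above Trim44, within their spread, and with PBS both were below it (8.94 ± 0.57 and 22.6 ± 0.81). Per library Trim44 had 138, 146 and 154 CPM with vesicles and 150, 149 and 154 CPM with PBS (-0.05 ± 0.06, adjusted p = 0.65). The 4 PHD-bromodomain members had none called and a median of -0.02, too few to set against the 19.8% of all tested genes called.

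The 25 tested members that were not called had log2 fold changes from -0.95 to 0.53. Groups did not overlap in 26 members, which are the 21 called and 5 of the 25 not called, where 33.8% of all tested genes had no overlap. A mean of 1 CPM in some group was reached by 41 members, and 5 were tested below it. The 22 members that were not tested had mean levels of at most 0.649 CPM, and Trim31, Trim40, Trim42, Trim52, Trim54 and Trim58 had 0 counts in all libraries. Trim38, which was tested in the retina (0.73 ± 0.36, adjusted p = 0.21), had only 2 counts over the vesicle libraries and 13 over the PBS libraries here.

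**Figure D4:**
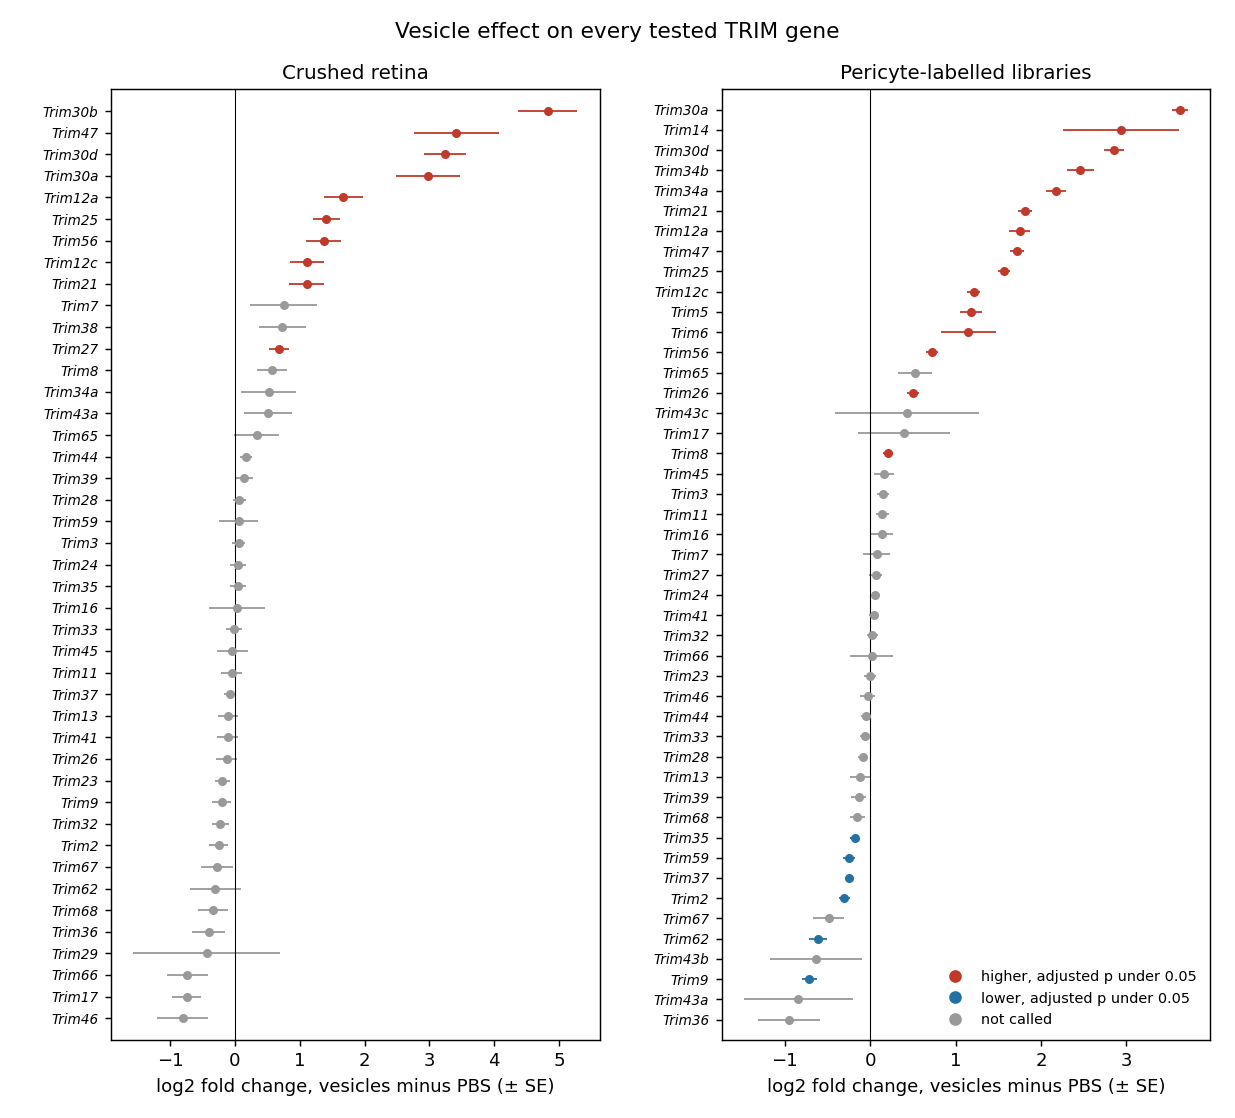
Log2 fold change, vesicles minus PBS, with its SE, of every tested TRIM gene in the crushed retina (43 genes) and the pericyte-labelled libraries (46 genes), red where higher, blue where lower and grey where not called. In the retina 10 genes are red and none is blue, and in the other libraries 15 are red and 6 blue, with the rest grey.

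In both retina and pericyte-labelled libraries 8 members were higher: Trim30a, Trim30d, Trim25, Trim12a, Trim12c, Trim56, Trim47 and Trim21. They are 80% of the 10 members higher in the retina and 53.3% of the 15 higher in the pericyte-labelled libraries, and no member was lower in both. The difference between the vesicle effects was tested with limma over the 13712 genes tested in both tables, of which 12.2% were called. Of the 40 members among them 3 were called, and 1 without retina vesicle library 2 or retina PBS library 2. Trim34a was at 4.01, 1.96 and 1.36 CPM with vesicles and 1.96, 1.70 and 1.44 CPM with PBS in the retina, where the groups overlap (0.52 ± 0.43, adjusted p = 0.45), and its effect in the retina was below that in the pericyte-labelled libraries by 1.80 ± 0.44 (difference -1.80, adjusted p = 0.011). Trim26 was at 18.7, 19.5 and 18.6 CPM with vesicles and 15.9, 21.9 and 24.1 CPM with PBS in the retina (-0.13 ± 0.16, adjusted p = 0.64), a difference of -0.61 ± 0.18 from its rise in the other libraries (adjusted p = 0.034). Trim27 differed the other way, by 0.61 ± 0.17 (adjusted p = 0.027). The call of Trim34a was lost without the lens-richest retina libraries (adjusted p = 0.062), that of Trim27 under 5 of 17 alternatives and that of Trim26 under 8.

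A run of 10 of the innate immune members lies on chromosome 7, in adjacent stretches of 6 and 4. Only protein-coding genes were considered for this order, so genes of other types may lie between them. In the order of the RefSeq annotation the 10 members are Trim6, Trim34a, Trim5, Trim12a, Trim34b, Trim12c, Trim30b, Trim30c, Trim30a and Trim30d, with 1 unnamed protein-coding gene model between Trim12c and Trim30b. In the retina 6 of these 10 were tested and 5 were higher, with a median log2 fold change of 2.32, while the other 37 tested members had 5 higher and a median of -0.02. Of all tested retina genes 10.7% were called higher. Trim30b in the run and Trim47 outside it passed the count filter only with their vesicle libraries. In the pericyte-labelled libraries 8 of the 10 were tested and all 8 were higher (median 1.97, from 1.15 to 3.63), and the other 38 had 7 higher, 6 lower and a median of 0.02. There 10.9% of all tested genes were called higher, and Trim14, outside the run, passed the count filter only with its vesicle libraries. These neighbours include the close relatives that share sequence, so they are not independent measurements. Another run of 5 members lies on chromosome 17 (Trim26, Trim15, Trim10, Trim40 and Trim31). Of that run only Trim26 was tested, and it was not called in the retina (-0.13) and higher in the pericyte-labelled libraries (0.50).

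**Figure D5:**
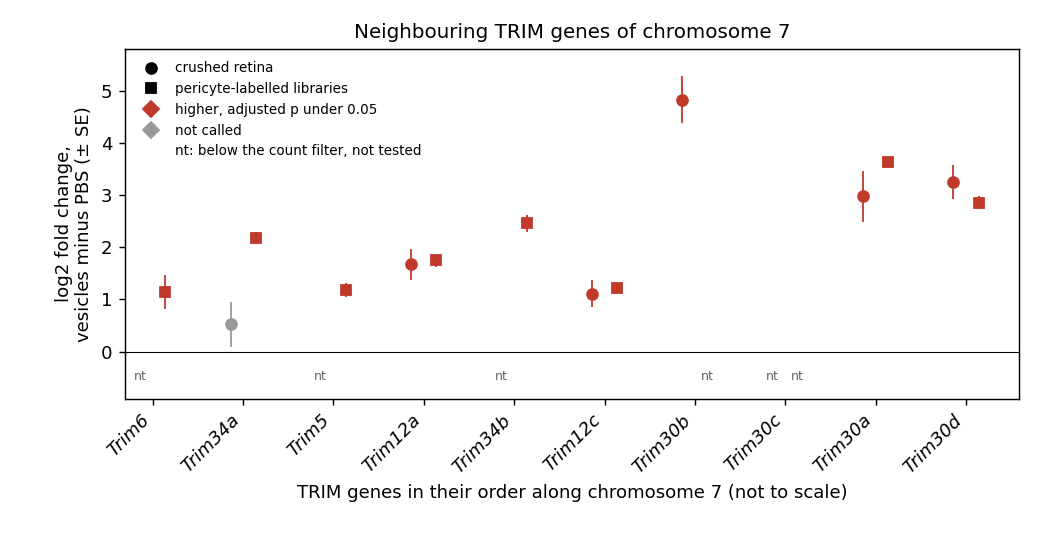
Log2 fold change, vesicles minus PBS, with its SE, of the 10 neighbouring TRIM genes in their order along chromosome 7 (spacing not to scale); circles are the retina, squares the pericyte-labelled libraries, red is called higher, grey not called, and nt marks genes below the count filter. Of the tested values only that of Trim34a in the retina (0.52) is grey, and Trim30b in the retina is the highest at 4.83, from PBS libraries with 4, 3 and 11 counts.

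Of 23 genes of interferon signalling and response in the retina table, all tested, 19 were higher and 0 lower with vesicles (median 1.88). Over all tested genes 10.7% were called higher in the retina and 10.9% in the pericyte-labelled libraries. Irf9, a transcription factor of the interferon response, averaged 80.9 CPM with vesicles and 9.65 CPM with PBS (3.07 ± 0.35, adjusted p = 0.0030). Ifit2, Ifit3, Rsad2 and Cmpk2, well known antiviral genes, were not called there. In the pericyte-labelled libraries all 25 were higher (median 3.02), with Cxcl10, a chemokine, at 427 CPM with vesicles and 8.68 CPM with PBS (5.62 ± 0.10, adjusted p = 3.9e-19) and Ifit3 at 1101 CPM with vesicles and 99.6 CPM with PBS (3.47 ± 0.07, adjusted p = 1.2e-18).

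Among genes of cytosolic nucleic acid sensing, 4 of 11 tested were higher in the retina (Ikbke, Ddx58, Tmem173 and Ifih1, median 0.72) and 7 of 12 in the pericyte-labelled libraries (median 0.64), with 0 lower in either. The shares called higher over all tested genes were 10.7% and 10.9%. Ddx58, which encodes the Trim25 target RIG-I, averaged 21.2 CPM with vesicles and 6.92 CPM with PBS in the retina (1.61 ± 0.23, adjusted p = 0.0017), and 282 CPM with vesicles and 68.5 CPM with PBS in the pericyte-labelled libraries (2.04 ± 0.06, adjusted p = 7.1e-17). Mavs, the adaptor downstream of it, was not called in either table (-0.09 ± 0.18 in the retina, -0.02 ± 0.07 in the other). Of 11 genes of ISG15, a ubiquitin-like modifier, and of partner ubiquitin enzymes, 8 were higher in the retina (median 1.70) and 11 in the pericyte-labelled libraries (median 1.82), and 0 were lower. Usp18, which removes ISG15 from proteins, averaged 11.5 CPM with vesicles and 2.86 CPM with PBS in the retina (2.00 ± 0.42, adjusted p = 0.014), and 129 CPM with vesicles and 9.12 CPM with PBS in the pericyte-labelled libraries (3.82 ± 0.08, adjusted p = 1.6e-18).

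Relatives of the family with other names gave 1 call of 6 tested in the retina and 1 of 5 in the pericyte-labelled libraries. These shares are close to those of all tested genes (15.9% and 19.8% called). Mefv, which encodes pyrin, an inflammasome sensor of myeloid cells, averaged 15.8 CPM with vesicles and 0.264 CPM with PBS in the retina (5.84 ± 0.45, adjusted p = 0.00012), and had 11 counts over the vesicle libraries and 1 over the PBS libraries among those labelled pericytes. Its retina PBS mean is near the floor, so the size of this fold change rests on few counts. In the retina Mefv passed the count filter only with its vesicle libraries. Pml, the organiser of nuclear bodies, averaged 78.0 CPM with vesicles and 47.7 CPM with PBS in the pericyte-labelled libraries (0.71 ± 0.06, adjusted p = 3.7e-08), and was not called in the retina (0.53 ± 0.21, adjusted p = 0.13). Mid1, Mid2, Bspry and Fsd1 were called in neither table.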

How the data were processed

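The authors deposited whole-number read counts per gene, with retina and pericyte-labelled libraries in separate tables. Per the submitters' processing notes, FastQC 0.11.8, HISAT2 2.0.5, featureCounts 1.5.0-p3 and limma were used. Neither the authors' genome build nor strandedness is stated. Pericyte column names equal the descriptions of single samples, and retina columns were assigned to groups by inference. The deposited counts were tested per table in R 4.3.3 with edgeR 4.0.16 (filterByExpr with a minimum count of 10, TMM scaling, robust quasi-likelihood F test, 4 residual degrees of freedom), with p-values adjusted over all tested genes. CPM uses TMM-scaled totals. The difference between tables used limma 3.58.1 (voom with a weight per table). With 3 libraries a group the smallest 2-sided p of an exact permutation test is 0.1, so p-values come from the models across genes. The tests were tried on simulated counts. Alternatives were RLE scaling, no filter, DESeq2 1.42.0, each library left out, the lens-richest retina libraries left out and a replicate block.

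Members and gene lists were chosen with earlier results of these data known. Every called member and the 3 highest per length in each table, averaged over both groups, are given in full, and the others by ranges and counts. Members singled out beside these, such as Trim17, were chosen after their values were seen. The lowest chi-square per degree of freedom between replicates was 11.2 for retina and 6.12 for pericyte-labelled libraries, so no library is a copy of another. Reads are not independent molecules, so floors cover counting error only. Exon lengths and overlaps are from GENCODE M21, and promoters and gene order from RefSeq GRCm38.p6, which may not be the authors' build. Trim sequence neighbours were found from shared words of 50 bases. The knockdown cells that the series text mentions match no sample and were not used here.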

Additional observations from a re-analysis of the deposited data

Results flagged for a closer look

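The vesicle effect differed between retina and pericyte-labelled libraries by limma's test of the difference for 3 of the 40 members tested, where 12.2% of all 13712 genes were called. The share of members is thus not above that of all genes. Differences are given as retina minus pericyte-labelled on the log2 scale. Trim34a differed by -1.80 ± 0.44 (adjusted p = 0.011), Trim27 by 0.61 ± 0.17 (adjusted p = 0.027) and Trim26 by -0.61 ± 0.18 (adjusted p = 0.034). Over the 17 alternatives the values ran from -2.26 to -1.52 for Trim34a, from 0.47 to 0.68 for Trim27 and from -0.84 to -0.53 for Trim26. Groups of 3 libraries are too small for a search for single outlying libraries.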

How the results depend on the processing

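In the retina, 10 TRIM genes were called, 11 with RLE scaling, 11 with DESeq2 and 12 with no count filter. Leaving out single libraries gave 5 to 13, with 5 without PBS library 2. Leaving out the lens-richest library of each group (vesicle library 2 and PBS library 1) gave 6, of which 5 were among the 10 and the other was Trim30c. Calls over all retina genes also fell, from 2449 to 1328 without PBS library 2 and to 1420 without the lens-richest libraries. Without PBS library 1 or vesicle library 3, 3 and 2 genes were called lower, among them Trim17, Trim46, Trim32, Trim2 and Trim36. In the pericyte-labelled libraries 21 were called, 21 with RLE scaling or DESeq2, 25 with no filter and 18 to 23 without single libraries. The difference between tables was called for 3 members, for 3 with RLE scaling, edgeR or no weights, for 2 without the lens-richest libraries and for 1 to 4 without single libraries (1 without retina vesicle library 2 or retina PBS library 2). No called gene changed direction under any alternative run. Causes were not tested. A replicate block in the pericyte-labelled libraries gave 23 calls (15 higher, 8 lower), and 3 for the difference. Deviations of same-numbered libraries correlated at 0.03, 0.02 and -0.02. With 3 libraries a group these values cannot settle whether same-numbered libraries were paired, which the labels do not state. No paired analysis was possible in the retina because its columns could be tied to a group but not to single samples, so their numbers are only names. The 25 members in the retina and 22 in the pericyte-labelled libraries that fell below the count filter were not tested, and whether depth or lack of expression set their counts was not tested either.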

Other observations

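Genes with TRIM-like symbols outside the naming rule held almost no counts. Trim30e-ps1, listed as a relative of the Trim30 genes, had 1, 1 and 0 counts in the vesicle libraries labelled pericytes and 0 in each of the PBS libraries. Triml1 was at 0 in all libraries of both tables, and Triml2 had 2 counts in 1 retina PBS library and 0 in all others.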
